A study of Homo sapiens with 12 samples.

Results

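The MX and GBP genes encode large GTPases of the dynamin superfamily that cells make in answer to interferon. The 7 members described here are MX1 and MX2 on chromosome 21 and GBP1, GBP2, GBP3, GBP4 and GBP5 on chromosome 1. They were found by gene name among the 60106 genes of the tables. The group was chosen from the measured siFOXA1 and NSI values of these same libraries, so its changes after FOXA1 siRNA, and the difference of those changes between the cell lines, are given as a description. Where such a change is said to be called, the call comes from the fit over all genes and supports nothing about the group.

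RNA was sequenced in 12 libraries, 3 for each of 4 groups. PC3 is a human prostate cancer line, grown here in RPMI-1640, and VCaP is a prostate cancer line carrying the TMPRSS2-ERG fusion, grown here in DMEM. In each line, 1 group received a non-targeting siRNA (NSI) and the other an siRNA against FOXA1, a pioneer transcription factor of the prostate epithelium, for 72 hours. The siRNA dose was 20 nM in PC3 and 40 nM in VCaP, and all groups had the transfection reagent and 10% foetal calf serum in common. PC3 libraries were made with a stranded mRNA kit and VCaP libraries with a total RNA kit, so line, kit, dose and medium cannot be told apart. Each line stands for 1 tumour, and the labels do not say whether the replicates were separate cultures, so a p-value measures only the spread between these libraries.

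Interferons bind receptors at the cell surface, JAK kinases then phosphorylate STAT proteins, and complexes of STAT proteins and IRF9 bind interferon-stimulated response elements (ISRE) in the promoters of target genes. MX1 assembles in the cytoplasm into rings that block the replication of influenza and other viruses. MX2 sits at the nuclear envelope and hinders the nuclear entry of HIV and of herpesvirus genomes. GBPs are strongly induced by interferon-gamma. They bind GTP, gather on membranes of pathogens and of the vacuoles that hold them, and GBP1 starts a coat on cytosolic bacteria that recruits caspase-4.

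RefSeq promoters (GRCh38.p14, 250 bases before to 50 bases after a gene start) were at hand for 4 of the 7 members. They are shown because the members' promoters can be compared for the ISRE core GAAANNGAAA, read on both strands, with matches in capitals. GBP1 is at chr1:89065159-89065458, GBP3 at chr1:89022817-89023116 and GBP4 at chr1:89198893-89199192, all on the minus strand, and MX1 is at chr21:41420308-41420607 on the plus strand.
GBP1: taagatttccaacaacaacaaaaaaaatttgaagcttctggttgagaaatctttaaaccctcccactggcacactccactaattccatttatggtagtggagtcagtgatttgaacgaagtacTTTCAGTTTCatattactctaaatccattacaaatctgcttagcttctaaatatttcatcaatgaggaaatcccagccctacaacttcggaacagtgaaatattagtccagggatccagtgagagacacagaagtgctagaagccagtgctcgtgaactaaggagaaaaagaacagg
GBP3: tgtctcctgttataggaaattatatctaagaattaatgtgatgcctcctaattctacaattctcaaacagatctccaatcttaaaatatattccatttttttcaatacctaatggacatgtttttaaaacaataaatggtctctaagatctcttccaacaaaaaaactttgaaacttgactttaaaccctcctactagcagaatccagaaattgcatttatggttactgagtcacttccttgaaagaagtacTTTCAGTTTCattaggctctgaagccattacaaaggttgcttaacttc
GBP4: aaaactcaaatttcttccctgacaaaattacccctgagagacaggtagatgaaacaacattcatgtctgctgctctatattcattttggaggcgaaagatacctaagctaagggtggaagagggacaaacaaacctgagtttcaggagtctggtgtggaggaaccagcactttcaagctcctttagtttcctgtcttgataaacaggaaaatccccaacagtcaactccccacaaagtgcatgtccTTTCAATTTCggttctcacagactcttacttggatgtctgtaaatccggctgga
MX1: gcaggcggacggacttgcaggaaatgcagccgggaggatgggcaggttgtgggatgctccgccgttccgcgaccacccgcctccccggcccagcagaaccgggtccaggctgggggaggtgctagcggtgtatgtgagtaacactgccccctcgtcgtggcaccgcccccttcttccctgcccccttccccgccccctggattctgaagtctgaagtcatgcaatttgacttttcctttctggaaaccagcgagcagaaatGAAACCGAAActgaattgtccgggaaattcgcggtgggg

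Each of these 4 windows held 1 match to the ISRE core, whereas 1255 of 35116 RefSeq promoters of the same length (3.57%) held at least 1. MX1 also had other windows, given below, and the one at chr21:41425989-41426288 held no match. The first base of the match lay 127 bases before the start site in GBP1 and 4 bases before it in GBP4. The GBP4 match runs across the start site. In GBP3 and MX1 the first base of the match lay 2 and 11 bases after the start. GBP1 and GBP3 shared the same TTTCAGTTTC, the core read on the other strand, within a run of 19 bases present in both (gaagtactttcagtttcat). Their windows aligned over 160 columns, of which 122 were identical (76.2%), and GBP1 and GBP4 aligned over only 14 columns.

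A gamma-activated site, TTCNNNGAA, was matched in 1 place in the GBP3 window and in none of the other 3 shown, against 7.66% of all RefSeq promoters. The forkhead motif TGTTTAC, read on both strands, was in none of the members' windows, against 3.42% of all promoters. A match describes letters in these windows and says nothing of what binds there. MX1 had a further start, at chr21:41431800-41432099, with 1 ISRE core and 1 gamma-activated site, and another at chr21:41425989-41426288 with neither.

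FOXA1 itself read 302, 243 and 263 CPM (counts scaled to a common library size, on 1 TMM scale over all 12 libraries) in the PC3 NSI libraries and 168, 183 and 167 CPM after siFOXA1. In VCaP it read 447, 458 and 540 CPM in NSI and 85.4, 73.3 and 83.4 CPM after siFOXA1. The siFOXA1 libraries were below the NSI libraries in both lines, by 0.68 on the log2 scale in PC3 and by 2.60 in VCaP. The PC3 libraries held 123143004 to 188229036 counts and the VCaP libraries 48189909 to 59842014, so VCaP values rest on fewer counts. Of 7 luminal and VCaP markers, 6 were higher in VCaP NSI than in PC3 NSI and HOXB13 was lower. ERG averaged 0.0295 CPM in PC3 NSI and 234 CPM in VCaP NSI, while VIM averaged 742 and 0.258 CPM. The mitochondrial share of counts was 13.1 to 15.7% in PC3 and 3.02 to 4.69% in VCaP.

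All 7 members were higher after FOXA1 siRNA in PC3, from a 3.23-fold ratio of mean CPM for GBP3 to 32.1-fold for MX2. In VCaP the picture was different: GBP3 was 7.37-fold higher, MX1 was 1.40-fold higher, and the other 5 members stayed below 0.6 CPM in every library. The ratios of those 5 rest on few counts. They were 3.22 for GBP1, 3.96 for GBP2, 1.69 for GBP4, 4.25 for GBP5 and 0.80 for MX2. In no VCaP group did any member other than MX1 and GBP3 average more than 0.317 CPM. In PC3, all 7 of 7 members were called higher (edgeR quasi-likelihood test, Benjamini-Hochberg adjusted p under 0.05 over all genes), where 27.7% of the 26478 tested genes were called in either direction and 13.9% were called higher. Nothing is read from that count, since the same contrast chose the members. Their median log2 fold change was 4.20, beside -0.01 over all genes tested.

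**Figure D1:**
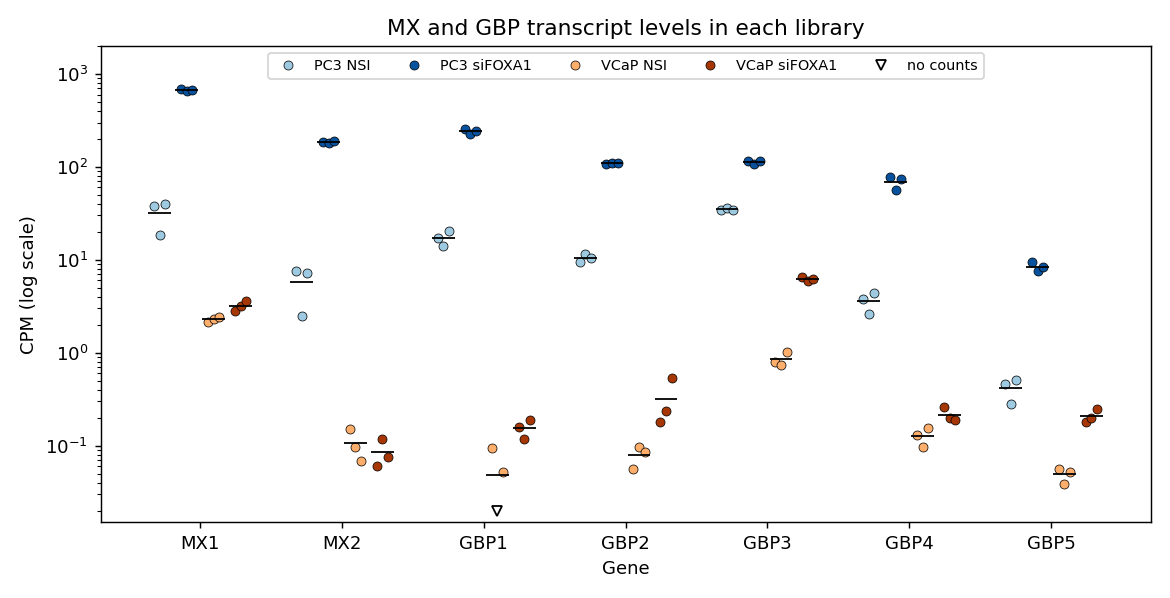
CPM of the 7 members in each library, on a log scale; points are libraries, bars are means of 3, and the open triangle marks the library with no GBP1 counts. In PC3 the siFOXA1 points stand above the NSI points for every member, and in VCaP only GBP3 and MX1 exceed 1 CPM in any library.

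MX1 (ENSG00000157601.13_3, GRCh37 chromosome 21, 42792442 to 42831141, plus strand) is the cytoplasmic member of the MX pair. It read 37.6, 18.3 and 40.2 CPM in PC3 NSI replicates 1 to 3 and 684, 649 and 679 CPM in the siFOXA1 replicates. The groups did not overlap, and the spread was wider in NSI (coefficient of variation 37.5%) than after siFOXA1 (2.78%). The fitted log2 fold change was 4.34 (SE 0.28). MX1 shared 5.84% of its exon bases with AP001610.5 on the opposite strand, and PC3 reads were counted without strand, so reads there cannot be told apart.

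MX2 (ENSG00000183486.12_3, chromosome 21, 42733870 to 42780870, plus strand), the nuclear-envelope member, had the largest fitted change of the 7 in PC3, 4.96 (SE 0.39). Its levels were 7.63, 2.47 and 7.18 CPM in NSI and 183, 181 and 190 CPM after siFOXA1. NSI replicate 2 was the low library for both MX genes. Taken number by number, the MX2 difference was 4.58, 6.19 and 4.73 on the log2 scale for replicates 1, 2 and 3, and that of MX1 was 4.18, 5.15 and 4.08. The siFOXA1 libraries spanned 0.07 log2 units for either gene, and the NSI libraries 1.63 for MX2 and 1.14 for MX1.

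GBP1 (ENSG00000117228.9_2, chromosome 1, 89518002 to 89531043, minus strand) founds the coat on bacteria and is the most studied human GBP. It read 17.0, 14.1 and 20.4 CPM in PC3 NSI and 255, 225 and 246 CPM after siFOXA1, a log2 fold change of 3.77 (SE 0.15). GBP2 (ENSG00000162645.12_3, 89573683 to 89591797), which with GBP5 inhibits the protease furin, read 9.40, 11.6 and 10.4 CPM in NSI and 108, 109 and 110 CPM after siFOXA1. The GBP2 change was 3.34 (SE 0.10), and its siFOXA1 libraries were the tightest of any member, with a coefficient of variation of 1.20%. Neither gene shared exon bases with another gene in the annotation.

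GBP3 (ENSG00000117226.11_3, 89472349 to 89488565), a close paralog of GBP1 that joins the GBP coat, had the smallest change of the 7 in PC3. It read 34.2, 36.4 and 34.1 CPM in NSI and 114, 109 and 115 CPM after siFOXA1, a log2 fold change of 1.65 (SE 0.08). GBP3 began from the highest NSI level of the GBP genes, and its NSI libraries were also the least spread of the members, at 3.77%.

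GBP4 (ENSG00000162654.8_2, 89646831 to 89664615), a GBP without the C-terminal lipid anchor of GBP1, GBP2 and GBP5, read 3.81, 2.63 and 4.43 CPM in PC3 NSI and 77.3, 56.1 and 73.3 CPM after siFOXA1. Its log2 fold change was 4.20 (SE 0.21). GBP5 (ENSG00000154451.14_2, 89726265 to 89736546), known also as a partner of the NLRP3 inflammasome, was the lowest member: 0.465, 0.279 and 0.511 CPM in NSI and 9.42, 7.55 and 8.31 CPM after siFOXA1, a change of 4.27 (SE 0.22). In both genes replicate 2 was the low library of each group. GBP5 shared 8.30% of its exon bases with RP4-620F22.2 on the opposite strand, with the same limit as for MX1.

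In PC3, every member had its lowest siFOXA1 library above its highest NSI library, as did 24.4% of all genes tested for that direction. Nothing is read from this either, since the same values chose the members. The GBP genes are paralogs, and the authors divided fragments that mapped to several places, so part of 1 GBP's count can come from another.

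In VCaP only MX1 and GBP3 passed the filter on low counts, and both were called higher. There 45.8% of the 22939 genes tested were called in either direction and 22.5% were called higher, and again nothing is read from the count. GBP3 read 0.790, 0.741 and 1.02 CPM in NSI and 6.59, 5.95 and 6.25 CPM after siFOXA1, a log2 fold change of 2.85 (SE 0.14). The deposited counts behind it were 42, 38 and 59 in NSI and 331, 300.08 and 326.92 after siFOXA1, and the groups were far apart. MX1 read 2.13, 2.32 and 2.40 CPM in NSI and 2.81, 3.17 and 3.61 CPM after siFOXA1, a change of 0.46 (SE 0.13). Its groups were close but did not overlap. Leaving out NSI replicate 1, siFOXA1 replicate 2 or siFOXA1 replicate 3 took MX1 out of the calls, at 0.40, 0.46 and 0.36.

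The other 5 members were close to the counting floor in VCaP. MX2 had deposited counts of 8, 5 and 4 in NSI and 3, 5.5 and 4 after siFOXA1, and its groups overlapped. GBP1 counts were 5, 0 and 3 in NSI and 8, 6.33 and 10.25 after siFOXA1. GBP2 counts were 3, 5 and 5 against 9, 12.25 and 28, with the highest value in siFOXA1 replicate 3. GBP1 and GBP2 were thus present only as a few fragments in libraries of 48189909 counts or more. For GBP4 the counts were 6.5, 4.5 and 9 in NSI and 12.5, 9.75 and 10 after siFOXA1, and for GBP5 they were 3, 2 and 3 against 9, 10 and 13. Of the 7 members, 6 had all siFOXA1 libraries above all NSI libraries in VCaP, MX2 being the exception, where 30.0% of the genes tested did. That share covers genes that passed the filter, which GBP1, GBP2, GBP4 and GBP5 did not, so it is no background for them. Nothing is read from this count, since the same values chose the members. With no filter on low counts, GBP1, GBP2 and GBP5 were also called, at log2 fold changes of 1.59, 1.93 and 2.00. With all 12 libraries in 1 fit, which these genes entered through PC3, GBP2 (1.98) and GBP5 (2.06) were called and GBP1 (1.65) was not. Here too, part of 1 GBP's few fragments can come from another. A change in MX2 or GBP4 was not detectable at this depth.

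The fitted responses of the 7 members are set side by side for the lines here, as a description. The siFOXA1 effect in VCaP minus that in PC3, from 1 edgeR fit over the 12 libraries, was 1.18 (SE 0.15) for GBP3, the only member with a positive value. It was -3.90 (SE 0.33) for MX1, -5.30 (SE 1.30) for MX2, -3.51 (SE 0.59) for GBP4 and -2.26 (SE 0.63) for GBP5. GBP1 and GBP2 lay at -2.17 (SE 0.79) and -1.40 (SE 0.55) and were not called. Thus 1 member was called higher and 4 lower, beside 22.1% of 30450 genes called in either direction, 11.1% higher and 11.1% lower. In a fit that blocked on replicate number, GBP1 (-2.16) and GBP2 (-1.40) were called as well, 7 members in all. Without VCaP NSI replicate 1 only 3 members were called, MX2 (-4.96) and GBP5 (-2.16) dropping out, and GBP5 (-2.22) also dropped out without VCaP NSI replicate 3. GBP1 was at -1.35 without VCaP NSI replicate 1, and was called at -2.71 without VCaP NSI replicate 2 and at -2.37 without PC3 NSI replicate 3. GBP2 was called at -2.01 without VCaP siFOXA1 replicate 3. These differences rest on the same libraries that chose the members. MX2, GBP1, GBP2, GBP4 and GBP5 were under the filter in VCaP and entered this fit through PC3, where they are high, and the wide errors of MX2, GBP1, GBP4 and GBP5 come with VCaP counts of 13 or fewer per library.

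Without the knockdown, all 7 members were lower in VCaP than in PC3. This contrast of the NSI groups was not used to choose the members, although the NSI libraries were part of that choice. MX2, GBP1, GBP2, GBP4 and GBP5 passed the filter only through PC3, so their direction was largely set by the filter, and their values are given with no p. GBP1 differed most, by -8.42 on the log2 scale (SE 0.28), from 14.1 to 20.4 CPM in PC3 and from 0 to 0.0941 CPM in VCaP. GBP2 followed at -7.01 (SE 0.25) and MX2 at -5.77 (SE 0.50). GBP3, at 34.1 to 36.4 CPM in PC3 and 0.741 to 1.02 CPM in VCaP, differed by -5.35 (SE 0.11, edgeR adjusted p 2.1e-15). GBP4 differed by -4.80 (SE 0.29), MX1 by -3.81 (SE 0.24, edgeR adjusted p 5.49e-10) and GBP5, the least, by -3.07 (SE 0.38). MX1 and GBP3, which also passed the filter in VCaP alone, were both called lower. In this contrast 86.9% of all genes were called and 44.2% were called lower, so a call alone sets no gene apart. The lines differ in kit, strand counting, medium and siRNA dose as well.

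Levels of different genes were compared per kilobase of exon (RPKM). In PC3 NSI the order was GBP3 (mean 11.4 RPKM), MX1 (7.93), GBP1 (5.67), GBP2 (4.71), MX2 (1.89), GBP4 (0.591) and GBP5 (0.208). MX1 and GBP1, and GBP1 and GBP2, overlapped in their ranges. After siFOXA1 the PC3 order became MX1 (166 RPKM), GBP1 (79.7), MX2 (60.8), GBP2 (49.1), GBP3 (36.8), GBP4 (11.2) and GBP5 (4.19), with no neighbours overlapping. GBP3 thus moved from the top of the order to the place above GBP4, while GBP4 and GBP5 stayed last. In VCaP NSI, MX1 (0.565 RPKM) stood above GBP3 (0.277). The other 5 lay between 0.0361 (GBP2) and 0.0160 (GBP1), each overlapping its neighbour. After siFOXA1 in VCaP, GBP3 (2.04 RPKM) stood above MX1 (0.791), ahead of GBP2 (0.143) and GBP5 (0.104), and GBP1 (0.0515), GBP4 (0.0353) and MX2 (0.0279) came last.

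**Figure D2:**
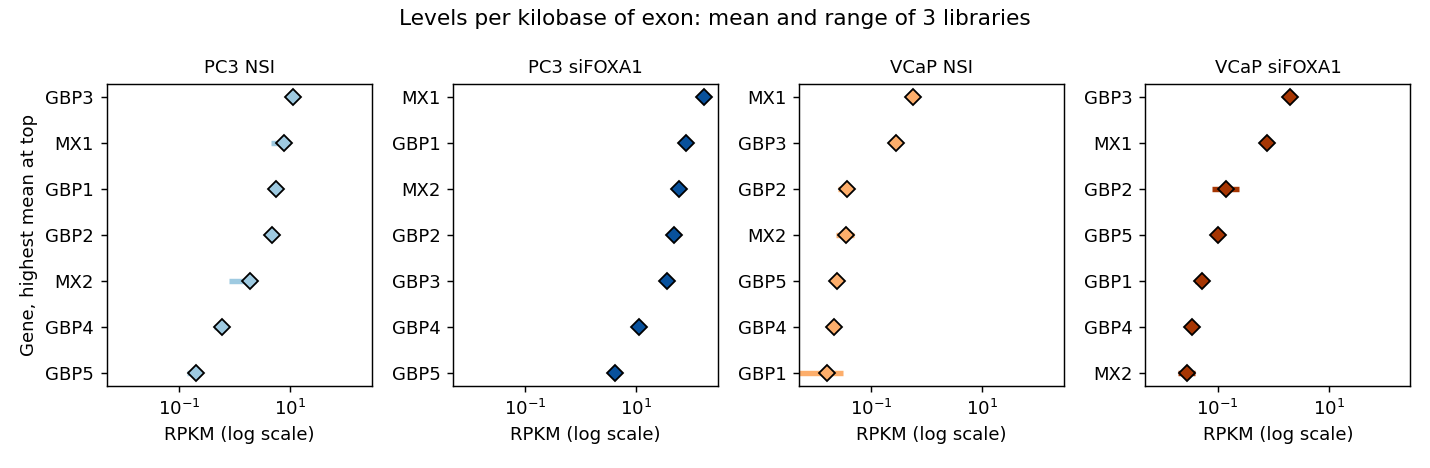
RPKM of the members in each group on a log scale, ordered by mean within each panel; diamonds are means and lines the range of 3 libraries (the lower end of GBP1 in VCaP NSI is 0 and is drawn at the panel's edge). MX1 leads in PC3 after siFOXA1 at 166 RPKM, and GBP3 leads in VCaP after siFOXA1 at 2.04 RPKM.

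The MX genes lie side by side, as do the GBP genes, and their neighbours within 250 kb were set beside them. On chromosome 21, neither of the 2 neighbours tested in PC3 was called: BACE2, a protease related to the beta-secretase, at 0.07 (SE 0.07), and TMPRSS2, a serine protease, at -0.55 (SE 0.29). In VCaP, BACE2 fell by 0.78 (SE 0.14) and TMPRSS2 by 0.21 (SE 0.07), and FAM3B was at -0.18 and not called. TMPRSS2 was the reverse of the MX genes in level, at 0.310 to 0.414 CPM in PC3 NSI and 110 to 120 CPM in VCaP NSI.

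On chromosome 1, the neighbour GBP7, itself a guanylate-binding protein gene, rose in PC3 from 0.148, 0.371 and 0.185 CPM to 1.82, 1.37 and 1.57 CPM, a log2 fold change of 2.73 (SE 0.31). In VCaP, GBP7 had a deposited count of 0.5 in 1 NSI library and none in the other 5. GBP6 had at most 9.5 counts in any PC3 library and 1 in any VCaP library, under the filter in both lines. Beyond the GBP genes, PC3 changes were small. RBMXL1, an RNA-binding retrogene, rose by 0.36 (SE 0.10), and PKN2, GTF2B and CCBL2 were between -0.18 and 0.08 and were not called. In VCaP, GTF2B (0.29) and CCBL2 (0.60) rose, and PKN2 (-0.42) and RBMXL1 (-0.26) fell. RBMXL1 and CCBL2 overlap on the minus strand, and fragments over both were divided between them. GBP3, the outermost of the run, is the GBP nearest to RBMXL1 and CCBL2.

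**Figure D3:**
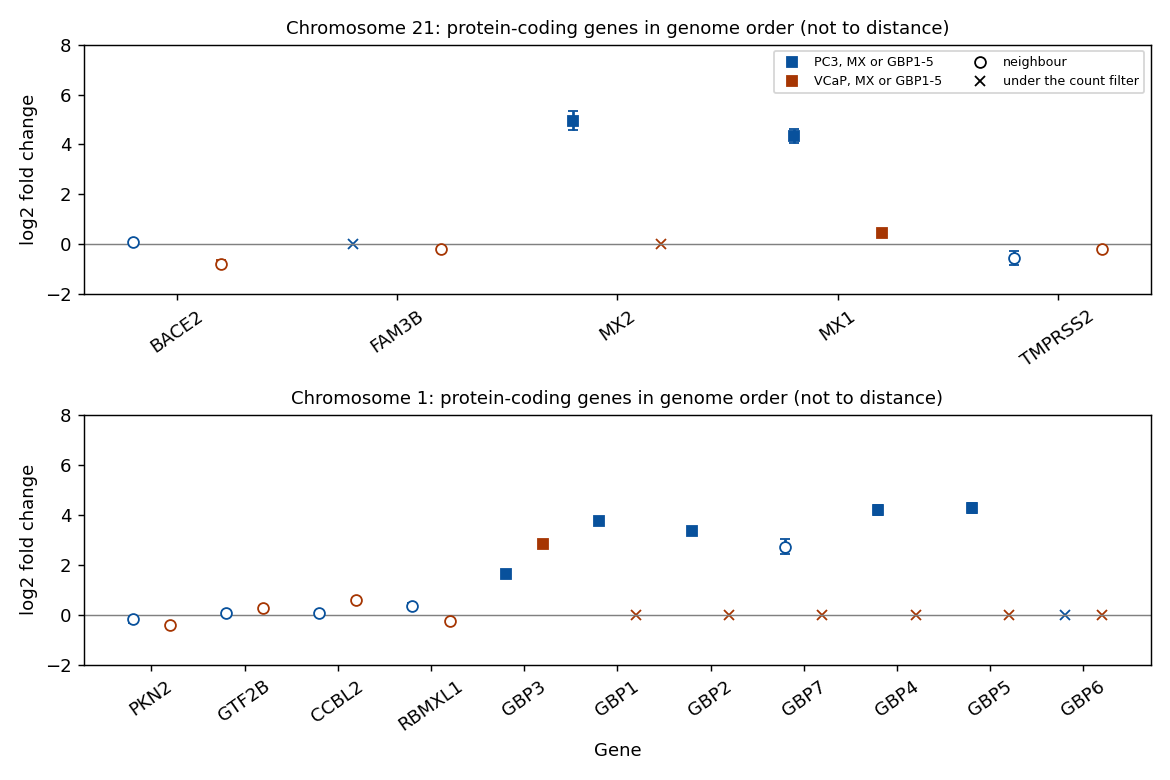
Log2 fold change, siFOXA1 over NSI, for the members (squares) and their protein-coding neighbours (circles) in genome order, with SE bars; crosses at 0 are genes under the count filter, which have no value. In PC3 the GBP run from GBP3 to GBP5 lies between 1.65 and 4.27, and GBP3 is the only member of that run with a value in VCaP.

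For each member, the 3 genes with the most like profile were sought among 17833 genes that averaged at least 1 CPM. Likeness was the root mean square difference of log2 CPM over the 12 libraries, after each profile was centred on its own mean. GBP3 had the closest matches: TRIM38 at 0.27, SCNN1B at 0.28 and CEACAM1 at 0.31. TRIM38 changed by 1.62 in PC3 and 2.86 in VCaP, near the 1.65 and 2.85 of GBP3. MX1 and GBP4 were near each other (0.49), with IFIT3 also near to GBP4 (0.49) and MX1 (0.53), and IFIT1 the nearest to GBP4 (0.32). LGALS9 was near to MX1 (0.55). EPSTI1 (0.35), RSAD2 (0.52) and SAMD9 (0.61) were nearest to GBP5, and TRIM22 (0.62), SAMD9L (0.66) and RTP4 (0.84) to MX2. GBP2 was closest to HCG4P11 (0.53), ANGPTL6 (0.59) and IFI27 (0.67). For GBP1, UTS2B was nearest at 0.94, before OAS2 (1.01) and IFI27 (1.19). The distances of MX2, GBP1, GBP2, GBP4 and GBP5 include the counting noise of their few VCaP fragments, and the GBP1 profile spanned 4.36 log2 units among the VCaP NSI libraries alone.

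Related and pathway genes outside the 7 were taken list by list, with calls over all genes tested as above. Of all genes tested, 27.7% were called in PC3 (13.9% higher) and 45.8% in VCaP (22.5% higher). The counts of the lists were not tested against these shares. Of 4 interferon ligands tested in PC3, 2 rose, IFNB1 (4.37, SE 0.80) and IFNL1 (4.94, SE 0.58). Both stayed rare, IFNB1 reaching 0.0921, 0.104 and 0.125 CPM and IFNL1 0.325, 0.391 and 0.364 CPM after siFOXA1. IFNG, the interferon-gamma gene, had no counts in any library. In VCaP no ligand passed the filter.

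Of 6 receptor genes, 1 rose and 2 fell in PC3 (median -0.12): IFNLR1, of the lambda receptor, rose by 0.53, and IFNGR2 (-0.59) and IFNGR1 (-0.36), of the gamma receptor, fell. In VCaP 5 rose and 1 fell (median 0.38), IFNGR1 rising by 0.95. Among kinases and transcription factors, 7 of 10 tested rose and none fell in PC3 (median 1.05). STAT2 rose by 2.45, IRF1 by 2.42 and IRF7 by 1.73. STAT2 went from 63.3, 45.6 and 65.4 CPM to 336, 297 and 351 CPM there. In VCaP 5 of 12 rose and 3 fell (median 0.03). STAT2 read 46.0, 41.5 and 37.1 CPM against 43.9, 43.3 and 38.1 CPM and was not called, and IRF1, which drives GBP genes, fell by 0.44.

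All 14 type I interferon-induced genes rose in PC3 (median 3.75), including CMPK2 (4.55), RSAD2 (4.49) and IFIT1 (4.09). In VCaP 8 of 11 tested rose and 2 fell (median 1.32): IFIT1 rose by 0.88 and RSAD2 by 0.91, OAS3 fell by 0.51 and ISG15 by 0.69, and CMPK2 was at 0.02 and not called. Of 13 genes that lean to interferon-gamma, 11 rose and none fell in PC3 (median 3.64), with the chemokine genes CXCL11 (6.22), CXCL9 (4.62) and CXCL10 (4.26) and the enzyme gene IDO1 (4.29) among them. In VCaP 5 of 11 tested rose and 4 fell (median 0.26). CXCL10 rose there from 2.54, 2.48 and 3.35 CPM to 29.3, 33.6 and 33.3 CPM, a log2 fold change of 3.49 (SE 0.12), and CXCL11 by 2.52. CIITA, the master regulator of class II antigen presentation, rose by 2.72 in VCaP and was at 0.08 and not called in PC3. CD274, the PD-L1 gene, rose in both lines, by 4.23 and 2.01.

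Of 5 negative regulators of interferon signalling, SOCS1 (3.27) and USP18 (3.05) rose in PC3 and PTPN2 (-0.45) fell (median -0.21). In VCaP, SOCS1 rose by 1.56 and USP18 fell by 0.94 (median 0.12).

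**Figure D4:**
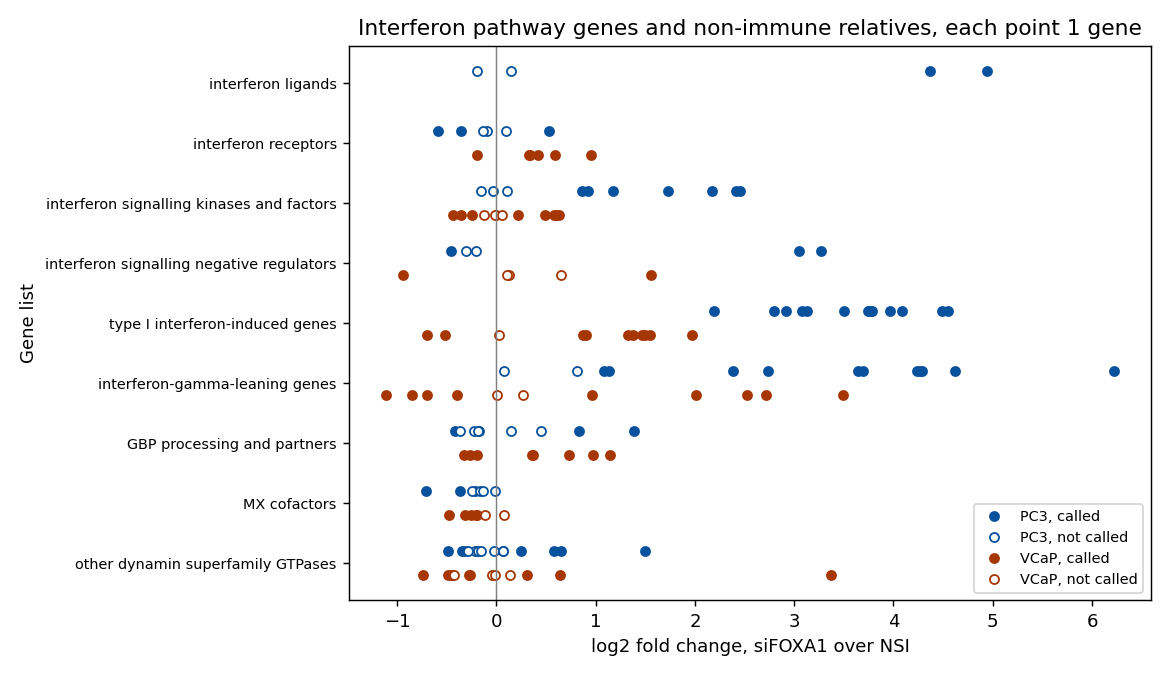
Log2 fold change, siFOXA1 over NSI, of each tested gene in 9 lists; blue is PC3 and brown VCaP, filled points are called and open points are not. All 14 type I interferon-induced genes are to the right of 0 in PC3, whereas genes that process GBPs, MX cofactors and other dynamin relatives lie on both sides of 0.

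Genes that act on or with the GBP proteins were taken next. Of 9 tested in PC3, 2 rose and 1 fell (median -0.17). CASP4, the lipopolysaccharide-sensing caspase of the GBP coat, rose by 1.39 in PC3 and 0.97 in VCaP. FURIN, the protease inhibited by GBP2 and GBP5, rose by 0.83 and 0.73. FNTA, the shared subunit of the enzymes that lipidate GBPs, fell by 0.42 in PC3 and rose by 0.37 in VCaP. In VCaP 5 of 8 rose and 3 fell (median 0.36), and PIM1, a kinase that phosphorylates GBP1, rose by 1.14. Among 7 genes linked to MX proteins, none rose in either line. There 2 fell in PC3 (median -0.21) and 5 in VCaP (median -0.20), with the helicase gene DDX39A at -0.71 and -0.48 and the cyclophilin A gene PPIA at -0.36 and -0.32.

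Other dynamin superfamily genes, not known as interferon targets, were split. In PC3 4 of 14 rose and 3 fell (median -0.09), and in VCaP 3 of 13 rose and 6 fell (median -0.27). DNM3, a dynamin of endocytosis, rose from 1.60, 1.47 and 1.61 CPM to 4.30, 4.31 and 5.06 CPM in PC3, by 1.50 (SE 0.13). In VCaP it rose from 0.470, 0.546 and 0.276 CPM to 4.40, 5.01 and 4.11 CPM, by 3.37 (SE 0.21). ATL1 rose by 0.65 in PC3 and fell by 0.74 in VCaP, EHD3 rose by 0.58 and fell by 0.45, and DNM1 fell by 0.49 in PC3. Of the immunity-related GTPases, IRGQ alone was tested, at 0.12 in PC3, not called, and at -0.29 in VCaP, where it fell.

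Immune cells also express MX and GBP genes, and in bulk RNA fewer cells of a type and less RNA per cell cannot be told apart. The 8 immune markers summed to 0.674 to 0.869 CPM in PC3 NSI and 1.40 to 1.43 CPM after siFOXA1, and to 0.983 to 1.34 and 2.56 to 3.54 CPM in VCaP. Of 4 immune markers tested in PC3, 3 were called higher (median log2 fold change 0.90), beside 13.9% of all genes called higher. The 1 tested in VCaP was called higher, by 1.96, beside 22.5%. The pan-leukocyte marker PTPRC averaged 0.024 and 0.111 CPM in PC3 and the T cell marker CD3E 0.0063 and 0.00397 CPM. MS4A1 had no counts in PC3 after siFOXA1, and NKG7 none in any VCaP library. The summed markers moved in the same direction as the members, and their part in the result was not tested. The endothelial markers VWF and CDH5 together stayed at or below 0.298 CPM in PC3 and fell in VCaP from 3.91 to 4.46 CPM to 1.70 to 2.03 CPM.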

How the data were processed

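RNA-seq gene counts of 12 libraries (PC3 and VCaP, NSI and siFOXA1, 3 replicates each) were analysed, with groups and replicate numbers from the sample titles. The deposited values were estimated counts, not normalized. The authors obtained these expected counts, per the file headers, from featureCounts on GRCh37 and GENCODE release 28, needed both ends mapped, divided multi-mapped and multi-overlapping fragments, and counted PC3 without strand and VCaP by reverse strand. The submitters' processing notes name STAR 2.7.3a and Subread 2.0.0. Counts were not whole in 54.8 to 75.2% of nonzero values per library and were rounded, with ties going upward.

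edgeR 4.0.16 in R 4.3.3 was run with TMM factors, filterByExpr and a two-sided quasi-likelihood test on each line's 6 libraries, and on all 12 for the difference between lines and the NSI contrast. A call was a Benjamini-Hochberg adjusted p under 0.05, taken over all tested genes. SE is the log2 fold change divided by the square root of F. Fitted changes include a prior count, which understates low genes. CPM used 1 set of TMM factors over 12 libraries, and RPKM is CPM per kilobase of the deposited gene length. The test was run on simulated counts with changes planted only in well-counted genes, with a single spread and no pairing. That check does not cover the low VCaP counts of MX2, GBP1, GBP2, GBP4 and GBP5.

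Same-numbered PC3 libraries deviated together (r of 0.16, 0.33 and 0.10 over genes). With genes averaging under 1 CPM left out, r was 0.45, 0.59 and 0.25. This pairing was seen in the data and not in the labels, and the main fits did not use it. Changes, SE and calls are thus from fits without a replicate block, except where the block is named. With the block, run as an alternative, 11333 of 26478 PC3 genes were called against 7344 without it. In VCaP r was 0.06, 0.03 and 0.27, and 0.11, 0.03 and 0.39 with the low genes left out. The members and all gene lists were chosen with earlier results of these data known. Genes outside the members were named as those of each list with the largest PC3 changes, genes whose call went against the rest, chromosomal neighbours within 250 kb and the 3 most like profiles; CIITA, CD274, PIM1, TRIM38 and the FNTA value in VCaP were picked after their values were seen. GBP1P1 and PECAM1 were not analysed here, and some items are not reported here. Alternatives were DESeq2 1.42.0, other scalings, filters, a minimum change, a replicate block and leaving out each library.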

Additional observations from a re-analysis of the deposited data

Results flagged for a closer look

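For 5 of the 7 members the interaction term of the 12-library edgeR fit, the siFOXA1 effect in VCaP minus that in PC3, passed the threshold. It was -3.90 for MX1, -5.30 for MX2, -3.51 for GBP4, -2.26 for GBP5 and 1.18 for GBP3 on the log2 scale. In PC3 all 3 siFOXA1 libraries were above all 3 NSI libraries for these 5 genes, and in VCaP the same held for all but MX2. The members were chosen on these values, and MX2, GBP4 and GBP5 were under the count filter in VCaP and entered the fit through PC3, where they are high, so the terms are a description and support no difference. With 3 libraries per group, no library was tested as an outlier.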

How the results depend on the processing

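All 7 members kept their call and direction in PC3 under each of the 17 alternatives. That contrast chose the members, so this is a description only. In the NSI contrast MX1 and GBP3 kept their call and direction under each of 22. The other 5 passed the filter there only through PC3, so nothing is read from their calls. In VCaP, GBP3 kept its call under all 17 alternatives (2.75 to 2.99), and MX1 lost it under 5 of 17. For the difference between the lines, MX1 and GBP4 kept their call under all 22 alternatives, GBP3 and MX2 each lost it under 1 and GBP5 under 3. GBP1 gained one under 6 and GBP2 under 3. MX2, GBP1, GBP2, GBP4 and GBP5 entered that fit through PC3, where they are high, so these tallies support no difference. Low counts limit the VCaP values of MX2, GBP1, GBP2, GBP4 and GBP5. The cause of a lost call was not tested.

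Calling only changes shown to exceed 1 on the log2 scale left 673 genes and 34 related and pathway genes called in PC3. In VCaP it left 1465 genes, 1 member and 9 related and pathway genes, and for the difference between the lines 1172 genes, 3 members and 24 related and pathway genes. The replicate block gave 11333 called genes in PC3, changed no member's call in either line, and added GBP1 and GBP2 to the calls of the difference. With no filter on low counts 5 members were called in VCaP, since GBP1, GBP2 and GBP5, not tested in the main fit, were tested. A filter at a mean of 1 CPM left 15940 genes called in the NSI contrast, since fewer were tested. Leaving out 1 library at a time gave 3963 to 7628 called genes in PC3, lowest without siFOXA1 replicate 1 and next, at 4738, without NSI replicate 3. It gave 1 to 4 members in VCaP and 3 to 6 members for the difference. The VCaP count was 1 without siFOXA1 replicate 2 or 3, and 4 without NSI replicate 2, NSI replicate 3 or siFOXA1 replicate 1. The counts of 4 include GBP2 and GBP5, which were under the filter in the main fit. The range thus mixes entry through the filter with loss of the MX1 call.

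Genes near no change switched sign, none of them called. STAT2 in VCaP was 0.029 with upper-quartile factors, 0.011 with a filter at a mean of 1 CPM and 0.0086 with all 12 libraries in 1 fit. Leaving out 1 library at a time gave -0.10 to 0.050 for STAT2 and -0.065 to 0.12 for CMPK2 in VCaP, and -0.016 to 0.27 for CIITA in PC3.

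Calls of other named genes were less stable, with no change of sign. In PC3, PPIA lost its call under 11 of 17 alternatives (-0.44 to -0.22), and IFNGR1 (-0.36 to -0.27), ATL1 (0.57 to 0.80) and RBMXL1 (0.31 to 0.45) each under 5, all 3 of them without NSI replicate 1 or 3 or siFOXA1 replicate 1 or 3. DDX39A, DNM1, FNTA and IFNLR1 each lost it under 2 there. In VCaP, TMPRSS2 (-0.26 to -0.14) and IFNLR1 (0.28 to 0.41) each lost their call under 9 of 17.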
